A study of Mus musculus with 8 samples.

Results

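Cd44, Alcam, Podxl and Cd47 encode glycoproteins of the cell surface, and their transcripts were followed in mouse embryonic stem (ES) cells that had been sorted on another surface marker, SSEA-1. The 4 genes were taken from the study's own list of probes that varied among the sorted fractions, of which 1998 rows were used here, and each gene had 1 probe among them. Another 171 rows of the list were not used here, so counts of genes named by it cover those 1998 rows alone. All 4 probes were among the 29484 tested, out of 42006 distinct probes on the array. The cells were the Hex-IRES-Venus reporter line HV (HIV in the labels), a 129/Ola knock-in in which the fluorescent protein Venus is translated from a message of the Hex locus, made in R26 BirA cells that carry the bacterial biotin ligase BirA. Cells grown for a day with LIF, which maintains self-renewal, were separated by flow cytometry into fractions negative or positive for Venus (V) and SSEA-1 (S), named V-S+ and V+S+ where SSEA-1 was present, then V-S- and V+S- where it was not. Each fraction was collected from 2 lines, clone 5.1 and clone 16.1, which gave 8 samples with 2 per fraction. Each line is a single clone, so without clone in the fit the p-values of comparisons between fractions measure the spread between 2 clones. With clone as a term of the fit (a block), they measure how far differences between fractions vary between the 2 clones. Levels are log2 ratios of the sample (Cy3) to a pooled reference RNA of mouse cell lines (Cy5), and no array had its dyes swapped.

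CD44 binds hyaluronan and other matrix components, and its cytoplasmic tail is tied to actin by ezrin, radixin and moesin. ALCAM (CD166) is an immunoglobulin-family adhesion molecule that binds itself and the T cell receptor CD6. Podocalyxin, the product of Podxl, is a heavily sialylated mucin-type protein of the CD34 family that is abundant on pluripotent cells and on many epithelia. CD47 is a widely expressed immunoglobulin-family protein that binds SIRPα on phagocytes, thrombospondin and integrins. SSEA-1 is not a protein but the Lewis X carbohydrate, made in mouse ES cells largely through the fucosyltransferase FUT9, and it is lost when these cells differentiate. Hex marks early primitive endoderm, the extraembryonic lineage that arises beside the epiblast in the blastocyst.

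Each transcript was read by a single probe of 60 bases, so the first 30 bases of each are shown to identify what was measured, with no base marked.
Cd44: agtggagaggggcagaaagtgattgtctgg
Alcam: gggacctttttgaagtagactggataaggg
Podxl: tttgttttcctgtcaggaattaattttgaa
Cd47: gctgctagctgaataacaagactgccactt
The whole probes held 45.0% (Cd44), 46.7% (Alcam), 36.7% (Podxl) and 45.0% (Cd47) G and C. The files give no mapped position for them, and which isoforms of Cd44 or Alcam each probe covers was not tested.

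RefSeq (GRCm38.p6) promoters were at hand for 3 of the 4 genes. The 250 bases before 1 start of each are shown, the first of 2 listed for Cd47. They are shown because these transcripts were all higher in Venus positive cells that lacked SSEA-1. Capitals mark every match, on either strand, to 6 motifs: the GC box GGGCGG, the GATA motif AGATAA, the TEAD motif CATTCC, the AP-1 motif TGANTCA, the octamer ATGCAAAT and the TATA box TATAAA.
Cd44, minus strand, chr2:102901666-102901915: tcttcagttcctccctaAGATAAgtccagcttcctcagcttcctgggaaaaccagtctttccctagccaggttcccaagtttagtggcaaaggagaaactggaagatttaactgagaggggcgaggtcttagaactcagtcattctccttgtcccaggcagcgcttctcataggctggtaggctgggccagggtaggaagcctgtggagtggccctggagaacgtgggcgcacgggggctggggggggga
Alcam, minus strand, chr16:52453082-52453331: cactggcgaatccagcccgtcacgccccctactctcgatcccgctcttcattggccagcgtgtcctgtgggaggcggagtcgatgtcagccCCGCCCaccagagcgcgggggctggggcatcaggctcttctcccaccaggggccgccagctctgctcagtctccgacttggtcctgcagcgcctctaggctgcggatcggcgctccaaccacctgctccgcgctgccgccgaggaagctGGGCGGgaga
Cd47, plus strand, chr16:49855404-49855653: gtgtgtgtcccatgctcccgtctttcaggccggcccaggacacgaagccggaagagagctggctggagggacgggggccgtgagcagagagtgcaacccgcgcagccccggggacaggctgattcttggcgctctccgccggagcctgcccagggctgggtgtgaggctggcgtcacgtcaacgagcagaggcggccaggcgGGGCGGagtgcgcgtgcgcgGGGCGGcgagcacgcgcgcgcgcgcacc
Alcam and Cd47 each held 2 GC boxes, a motif found in 32.7% of all 32851 promoter entries of the same length. Cd44 held 1 GATA motif, found in 10% of promoters. None of these matches overlapped another, and the other 4 motifs were not found in the 3 stretches.

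Across the series, the median Cy3 signal was between 2.36 and 2.88 times the local background per sample, no spot was saturated, and repeat scans of an array differed with an SD of 0.056 to 0.078 on the log2 scale. Each clone had its own slide, and the effects of slide and clone cannot be told apart. Of 8 ES cell markers on the study's list, the mean log2 ratio was above 0 in all 8 samples, between 0.50 and 1.47. Of 8 primitive endoderm markers, 7 exceeded their V-S+ level in V+S- cells by the test described below, where 48.1% of all listed probes and 5.73% of all tested probes were called higher. These are bulk samples, in which fewer cells that carry a transcript and less of it in each cell cannot be told apart.

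Cd44 was lowest in both Venus negative fractions and highest in V+S- cells. Read from V-S+ through V+S+, then V-S-, to V+S- cells, its log2 ratio in clone 5.1 was -2.91, -2.68, -3.00 and -1.70. In clone 16.1 the ratios in the same order were -2.63, -1.97, -2.76 and -1.02. The V+S- samples stood above all others, while the V+S+ sample of clone 5.1 fell within the range of the Venus negative samples. Its Cy3 signal ran from 2.17 times the local background, in the V-S- cells of clone 5.1, to 10.9 times, in the V+S- cells of clone 16.1, and was well above background in all 8 samples.

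Alcam followed the same order of fractions. In the order given for Cd44, its log2 ratio in clone 5.1 was -3.51, -3.41, -3.75 and -2.27. In clone 16.1 the ratios were -3.33, -2.86, -3.50 and -1.82. Again both V+S- samples lay above the rest, and the V+S+ sample of clone 5.1 lay between the V-S+ samples of the 2 clones. Within each clone, V+S+ exceeded V-S+, and V-S- was the lowest fraction.

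Podxl divided the fractions by Venus alone. Its log2 ratio in clone 5.1 was 1.28 (V-S+), 1.91 (its Venus positive counterpart), 1.32 (V-S-) and 2.15 (V+S-). In clone 16.1, in the same order, it was 1.33, 2.16, 1.33 and 2.05. All 4 Venus positive samples were above all 4 Venus negative samples, and V+S+ and V+S- overlapped. Podxl was the only one of the 4 transcripts with a ratio above 0, that is, above the reference RNA, in every sample, whereas Cd44, Alcam and Cd47 were below it in every sample.

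Cd47 was lowest in V-S- and highest in V+S- cells. Over the fractions in the same order, its log2 ratio in clone 5.1 was -3.35, -2.94, -3.59 and -2.41. In clone 16.1 it was -3.35, -2.55, -3.57 and -2.07. The samples of no fraction overlapped those of another, although the difference of V-S- from V-S+ was not called by the test given below. The Cd47 ratios of the 2 clones were nearly equal in both Venus negative fractions and apart in both Venus positive fractions.

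**Figure D1:**
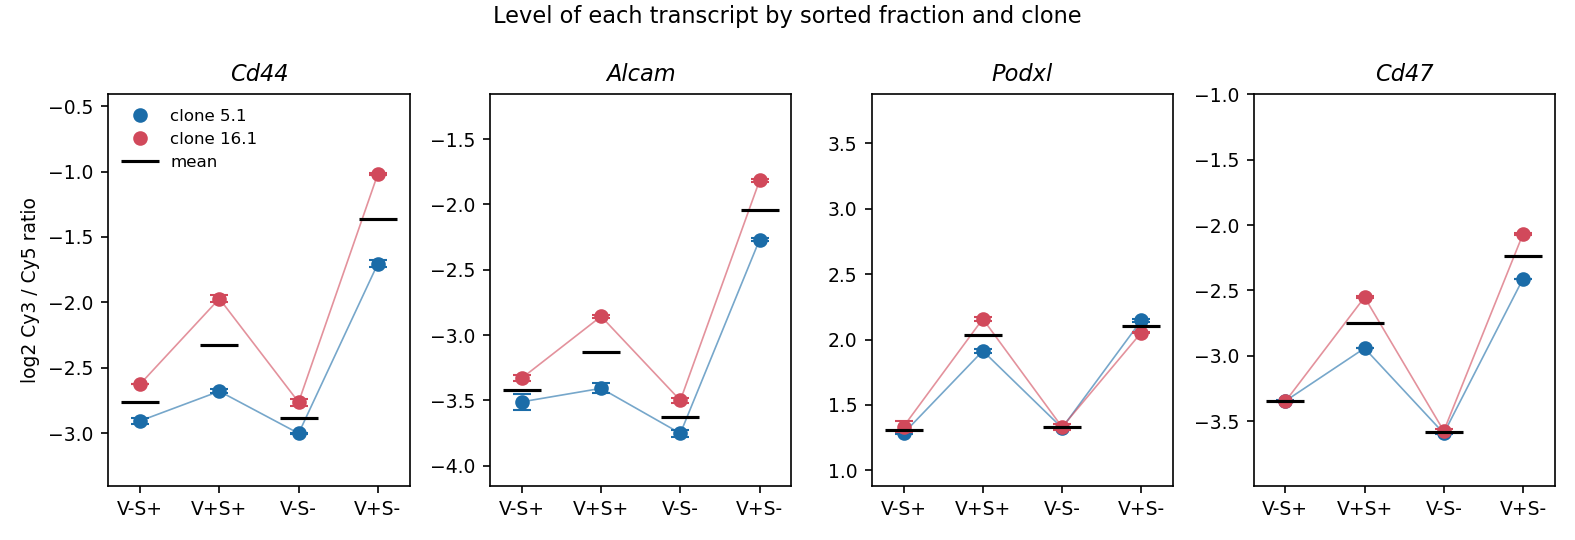
Log2 Cy3/Cy5 ratio of Cd44, Alcam, Podxl and Cd47 (y axis, each panel spanning 3 log2 units) in the 4 sorted fractions (x axis). Points are single samples joined by clone, small ticks are the 2 scans of each array and black bars are fraction means, with Podxl overlapping between V+S+ and V+S- cells and the other 3 highest in V+S- cells.

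The first comparison asked how cells positive for Venus and negative for SSEA-1 differed from Venus negative, SSEA-1 positive cells. All 4 transcripts exceeded their V-S+ level in V+S- cells by limma with Benjamini-Hochberg adjustment over all probes and a 1.5-fold threshold. In this direction 5.73% of all tested probes passed, and 8.87% with clone as a block. Because the study chose its list by an analysis of variance among these same fractions, 1193 of the 1998 listed probes passed in one direction or the other, and the 4 genes are no independent evidence of a difference. Cd44 was 2.65-fold higher (log2 difference 1.41, SE 0.30, adjusted p = 0.0314). Alcam was 2.6-fold higher (1.38, SE 0.23, adjusted p = 0.0192). Cd47 was 2.16-fold higher (1.11, SE 0.16, adjusted p = 0.0156). Podxl rose least, 1.73-fold (0.79, SE 0.09, adjusted p = 0.0122), and it had the smallest error. Each difference was positive in both clones. When either V-S+ sample, or the clone 16.1 sample of V+S- cells, was left out, 0 of the 4 were called, whereas with clone as a block all 4 were called whichever sample was left out.

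Against V-S- cells, which lacked both markers, V+S- cells again had more of all 4 transcripts, where 6.30% of probes were called higher, or 8.96% with clone as a block. The difference was 2.99-fold for Alcam (log2 1.58, SE 0.23, adjusted p = 0.0148), 2.87-fold for Cd44 (1.52, SE 0.30, adjusted p = 0.0253), 2.54-fold for Cd47 (1.34, SE 0.16, adjusted p = 0.0118) and 1.71-fold for Podxl (0.77, SE 0.09, adjusted p = 0.0121). When either V-S- sample, or again the clone 16.1 sample of V+S- cells, was left out, 0 of the 4 were called. With clone as a block all 4 were called in every such fit.

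Between the Venus negative fractions, none of the 4 transcripts was called in V-S- against V-S+ cells, with or without clone as a block, and none had an unadjusted p under 0.05 in limma. The log2 differences were -0.12 for Cd44, -0.21 for Alcam, 0.02 for Podxl and -0.24 for Cd47. Across the array 0 of 29484 probes were called in this comparison, a share of 0%, and 834 had an unadjusted p under 0.05. Without clone the 95% intervals of the difference were -0.85 to 0.61 for Cd44, -0.75 to 0.34 for Alcam, -0.21 to 0.24 for Podxl and -0.61 to 0.14 for Cd47. With clone as a block they were -0.43 to 0.19 for Cd44, -0.44 to 0.02 for Alcam, -0.18 to 0.22 for Podxl and -0.50 to 0.03 for Cd47. Within clones, the Cd47 difference was -0.25 and -0.22 and that of Alcam -0.24 and -0.17. As each sample was dropped, Alcam ranged from -0.33 to -0.080 without the block, and Cd47 from -0.36 to -0.11 with it.

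**Figure D2:**
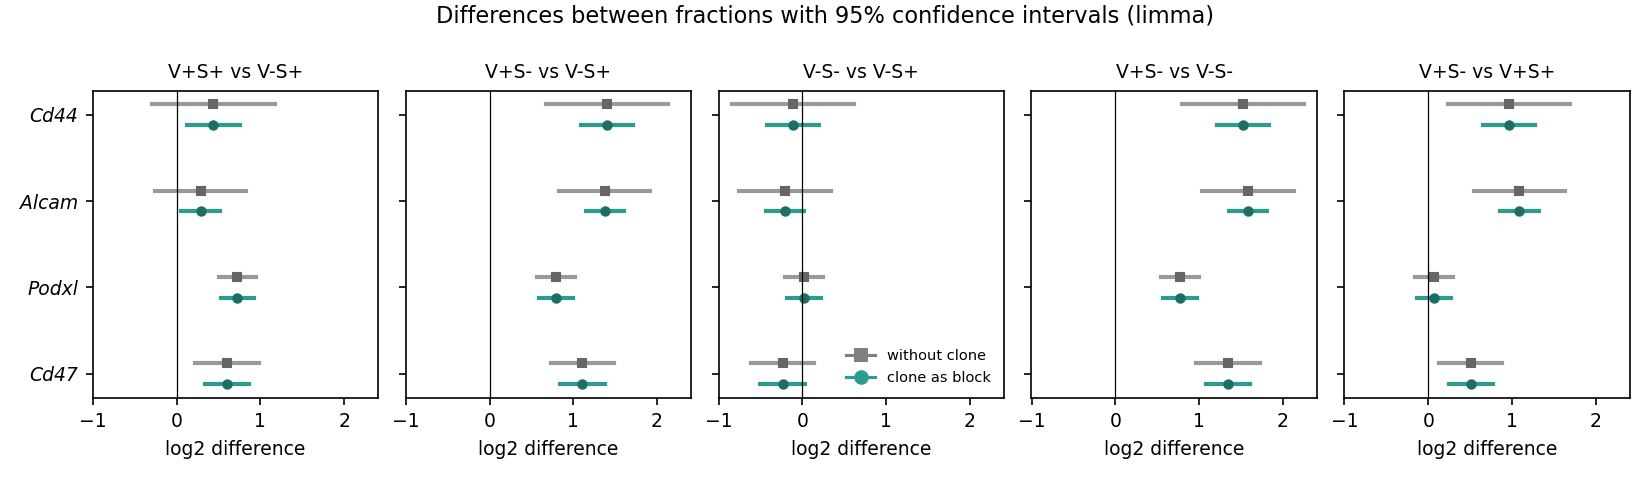
Log2 difference of each transcript (x axis) in the 5 comparisons of fractions, with 95% confidence intervals from limma without clone (grey squares) and with clone as a block (green circles). The intervals narrow with the block, and intervals of both fits include 0 for all 4 transcripts in V-S- against V-S+ and for Podxl in V+S- against V+S+, as do the grey intervals of Cd44 and Alcam in V+S+ against V-S+.

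Within SSEA-1 positive cells, Venus positive and negative fractions were compared to ask which transcripts differed where SSEA-1 was present. Without clone in the fit, 0 of the 4 were called, as were 0% of all probes. Podxl and Cd47 had unadjusted p-values under 0.05 in limma, as did 5515 of 29484 probes. The clones pair the samples, and with clone as a block Podxl and Cd47 were called, where 3.87% of probes were called higher. Podxl was 1.66-fold higher in V+S+ cells (log2 difference 0.73, blocked 95% interval 0.53 to 0.93, adjusted p = 0.00424 with the block and 0.142 without). Cd47 was 1.52-fold higher (0.60, blocked interval 0.34 to 0.87, adjusted p = 0.0142 with the block and 0.177 without). Cd44 was higher by 0.44 (blocked interval 0.13 to 0.75, adjusted p = 0.0535) and Alcam by 0.29 (0.06 to 0.52, adjusted p = 0.0752), and neither passed. The Cd44 difference was 0.23 in clone 5.1 and 0.65 in clone 16.1, and that of Alcam 0.10 and 0.47. Without the block both moved with the V+S+ samples: dropping that of clone 5.1 gave 0.79 for Cd44 and 0.56 for Alcam, and dropping that of clone 16.1 gave 0.086 and 0.012. The blocked differences ranged from 0.29 to 0.59 for Cd44 and from 0.16 to 0.42 for Alcam as each sample was dropped. Signals processed by the scanner software gave 0.71 for Cd44, as did the authors' values. As each sample was dropped, the blocked difference ranged from 0.60 to 0.85 for Podxl and from 0.47 to 0.74 for Cd47. The Cd47 call was lost when clone 16.1 lacked its V-S+ or its V+S+ sample, where calls over the whole array also fell.

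Within Venus positive cells the order was different. In V+S- against V+S+ cells Alcam was 2.13-fold and Cd44 1.95-fold higher, and both were called with clone as a block, where 1.75% of probes were called higher. The log2 differences were 1.09 for Alcam (blocked 95% interval 0.86 to 1.32, adjusted p = 0.0071) and 0.97 for Cd44 (0.65 to 1.28, adjusted p = 0.0114). Cd47 was higher by 0.51 (0.24 to 0.77), and with an adjusted p of 0.0365 it missed the fold threshold. Podxl differed by 0.06, with an interval of -0.14 to 0.27, within which a difference cannot be told from none. Without clone 0 of the 4 were called, as were 0% of all probes. Alcam, Cd47 and Cd44 had unadjusted p-values under 0.05 in limma, as did 4429 of 29484 probes. In that fit the differences of Cd44 and Cd47 were 0.61 and 0.31 when clone 5.1 lacked its V+S+ sample, and 0.62 and 0.34 when clone 16.1 lacked its V+S- sample. In the blocked fit the calls of Alcam and Cd44 were lost without either V+S- sample, as were those over the whole array. As each sample was dropped, the blocked difference ranged from 0.96 to 1.22 for Alcam, 0.81 to 1.12 for Cd44 and 0.37 to 0.64 for Cd47.

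The difference of V+S+ from V-S+ cells can be given as a share of that between V+S- and V-S+ cells, on the log2 scale. From the means of the clones the share was 20.9% for Alcam, 31.3% for Cd44, 54.2% for Cd47 and 91.9% for Podxl. In clone 5.1 the shares were 8.31%, 18.8%, 43.2% and 73.0%, and in clone 16.1 they were 31.2%, 40.6%, 62.2% and 115%. The order of the 4 genes was the same in both clones, and each share was larger in clone 16.1. Each share rests on 3 samples in a clone, and the order itself was not tested. For the mean of 8 primitive endoderm markers this share was 29.1% in clone 5.1 and 54.3% in clone 16.1, for that of 5 mesenchymal markers 22.8% and 36.3%, and for that of 4 trophoblast and epithelial markers 45.2% and 53.0%. The mean of 8 ES cell markers, which was lower in V+S- cells, gave 29.2% and 68.3%.

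**Figure D3:**
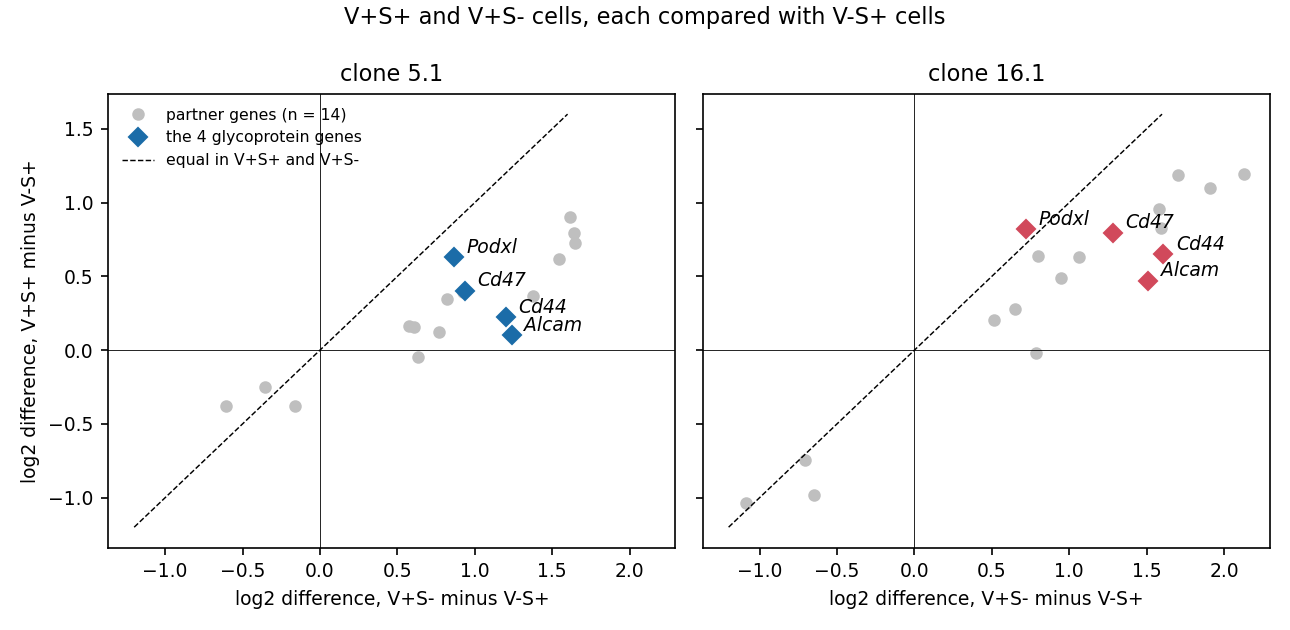
Log2 difference of V+S+ from V-S+ cells (y axis) against that of V+S- from V-S+ cells (x axis) in each clone, for Cd44, Alcam, Podxl and Cd47 (diamonds) and 14 of their partner genes (grey circles). On the dashed line a transcript differs equally in both Venus positive fractions, and Podxl lies near it in both clones while Alcam and Cd44 lie well under it.

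Whether the effect of Venus depended on SSEA-1 was tested as an interaction, the Venus difference in SSEA-1 negative cells less that in SSEA-1 positive cells. It was 1.29 on the log2 scale for Alcam, 1.08 for Cd44, 0.74 for Cd47 and 0.05 for Podxl. Without clone 0 of the 4 passed, as did 0% of all probes. Alcam, Cd47 and Cd44 had unadjusted p-values under 0.05 in limma, as did 2338 of 29484 probes. With clone as a block Alcam passed (adjusted p = 0.0357), where 0.950% of probes did, and Cd44 (0.0552) and Cd47 (0.0819) did not. In the blocked fit, nearly all calls over the whole array, that of Alcam included, were lost when any sample but one was left out. The exception was the V+S+ sample of clone 16.1. As each sample was dropped, the blocked value ranged from 1.17 to 1.42 for Alcam and from 0.92 to 1.24 for Cd44. For Podxl the blocked 95% interval was -0.24 to 0.33.

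The overall test among the 4 fractions called Alcam, Podxl and Cd47, where 7.38% of probes were called. Cd44 missed with an adjusted p of 0.0634, and with clone as a block it passed at 0.00102, as did 43.5% of probes. Without clone, no call remained over the whole array, the 4 included, when any V-S+, V-S- or V+S- sample was left out. Calls remained over the array and for the 4 without either V+S+ sample.

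The clones were compared next. The study's list was chosen for variation among fractions in these same samples, and 52 of its 1998 probes were called between clones. The p-values here take the fractions of a clone as its replicates, with fraction in the fit, so they measure the spread of the clone difference across fractions. Averaged over fractions, Cd44 was higher in clone 16.1 by 0.48 on the log2 scale, 1.39-fold (95% interval 0.26 to 0.70, adjusted p = 0.0132), and Alcam by 0.36, 1.28-fold (0.20 to 0.52, adjusted p = 0.0125). Both were under the 1.5-fold threshold, so 0 of the 4 were called, where 2.14% of probes were. By false discovery rate alone 26.2% of probes passed. Cd47 was higher in clone 16.1 by 0.19 (adjusted p = 0.127, and 0.12 to 0.25 as each sample was dropped) and Podxl by 0.05 (adjusted p = 0.562). Cd44 was higher in clone 16.1 in every fraction, by 0.28 and 0.24 where Venus was absent (V-S+, then V-S-) and by 0.71 and 0.69 where it was present (V+S+, then V+S-). Cd47 differed by -0.0034 and 0.02 in the Venus negative fractions V-S+ and V-S-, and by 0.39 and 0.34 in their Venus positive counterparts. With 1 sample per clone and fraction, these differences within fractions have no replicate.

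**Figure D4:**
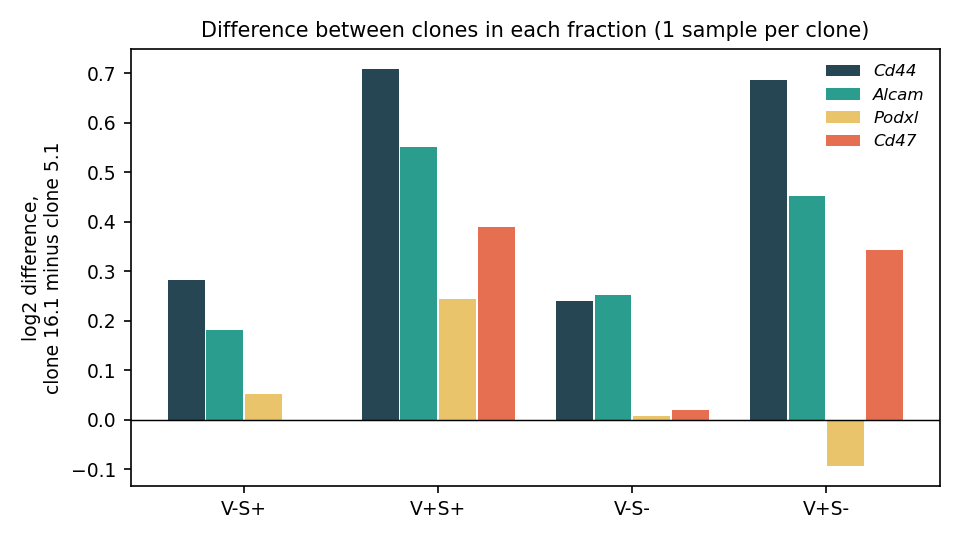
Log2 ratio in clone 16.1 minus that in clone 5.1 (y axis) for each transcript (colours) in each fraction (x axis), 1 sample per clone. For Cd44, Alcam and Cd47 the bars are taller in the Venus positive than in the Venus negative fractions, and the Podxl bar in V+S- cells is below 0.

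Markers of mesenchymal cells and fibroblasts moved with Cd44 and Alcam, both of which such cells carry. The rows used named 5 of 8 such markers (Acta2, Col1a2, Postn, Twist2 and Vim), and 4 of them passed as higher in V+S- cells when set against V-S+, beside 48.1% of all listed probes. Their mean log2 ratios in clone 5.1 and clone 16.1 were -3.70 and -3.26 in V-S+ cells. They were -3.32 and -2.58 when Venus was present beside SSEA-1. The SSEA-1 negative cells had -3.67 and -3.42 without Venus and -2.05 and -1.39 with it. Clone 16.1 thus had the higher mean by 0.44, 0.74, 0.25 and 0.66, the fractions in this order, beside the differences of Cd44 given above. Of 4 epithelial and trophoblast markers in these rows, 3, the keratins Krt7, Krt8 and Krt18 passed with higher values in V+S- cells than their V-S+ counterparts, while Tcfap2c, a trophoblast transcription factor, differed by -0.88 on the log2 scale and was called lower with clone as a block alone (adjusted p = 0.0747 without the block and 0.0075 with it). The mean of the 4 in V+S- cells was 1.61 in clone 5.1 and 1.41 in clone 16.1. The part of such cells in the levels of the 4 glycoprotein transcripts was not tested.

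The partners of the 4 proteins were taken from a list of 38 ligands, receptors, proteases and tail-binding proteins, of which 14 were named in the rows used. In V+S- against V-S+ cells 10 of the 14 rose and 1 fell, with a median log2 difference of 0.84, against 0.67 over the study's list and 0.01 over all tested probes. The study chose these probes on the same arrays too, and of all its 1998 listed probes 48.1% were called higher and 11.6% lower in this comparison, or 54.9% and 15.9% with clone as a block. Without the block, the calls of partners ended when a V-S+ sample or the clone 16.1 sample of V+S- cells was dropped. Nearly all calls over the whole array ended with them. Fewer were called when a V-S- sample, or the clone 5.1 sample of V+S- cells, was dropped, as over the whole array. Of the listed proteases that shed or cleave CD44, Adam17 was not named in the rows used. Those named there rose: Mmp9 by 1.87, Mmp14 by 1.62 and Adam10 by 0.64 on the log2 scale (adjusted p 0.0273, 0.0275 and 0.0260). The CD44 matrix partners Tnfaip6 (1.48), which modifies hyaluronan, and Vcan (0.70), the proteoglycan versican, also rose. So did Egfr (1.62) and Met (0.81), receptors that CD44 can assist. Msn, the gene of moesin, which binds the tails of CD44 and podocalyxin, rose by 0.99 (adjusted p = 0.0312), and Nf2, whose product merlin competes for the CD44 tail, fell by 0.85 (adjusted p = 0.0445).

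Among ligands of the other members, Thbs1, the thrombospondin that binds CD47, had the largest difference. Its log2 ratio, in the order of fractions used above, was -1.09, -0.29, -1.67 and 0.55 in clone 5.1 and -0.81, 0.29, -1.25 and 1.1 in clone 16.1. V+S- exceeded V-S+ by 1.78 (adjusted p = 0.0174), and Itgav, an integrin chain of the CD47 complex, by 0.86 (adjusted p = 0.0172). Cd6, the receptor of ALCAM, differed by -0.53 and missed the fold threshold (adjusted p = 0.0338). Spp1, the CD44 ligand osteopontin, differed by -0.40 (adjusted p = 0.128), and Hbegf, a growth factor held by CD44, by 0.54, under the fold threshold.

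In V+S+ against V-S+ cells 0 of the 14 partners were called without clone. With the block 5 were higher (Egfr, Mmp14, Mmp9, Thbs1 and Tnfaip6) and 2 lower (Nf2 and Spp1), where 25.5% of the listed probes were called higher and 8.76% lower. Msn differed by 0.51 and Vcan by 0.07 in this comparison, and neither was called. In V+S- against V-S- cells 10 partners were called higher and 2, Nf2 and Cd6, lower, beside 53.1% and 13.2% of the listed probes. In V+S- against V+S+ cells 6 were called higher with the block, as were 17.0% of the listed probes. The blocked counts, and the count of 10 without the block, moved as samples were dropped one at a time, as did calls over the whole array.

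SSEA-1 was not measured on these arrays, and among genes of glycan synthesis the one known for making it in ES cells is Fut9. On the log2 scale Fut9 fell by 0.74 in V+S- against V-S+ cells (adjusted p = 0.0156), while in V+S+ against V-S+ cells it differed by -0.10 (adjusted p = 0.615). Its log2 ratio in that order was 0.85, 0.72, 0.41 and 0.10 in clone 5.1 and 0.95, 0.88, 0.62 and 0.23 in clone 16.1. Both SSEA-1 negative fractions lay below both positive fractions, and V+S- lay below V-S- in each clone. The difference of V-S- from V-S+ cells was not called, with or without the block. Of 18 genes for fucosyl-, sialyl-, galactosyl- and related glycosyltransferases on the study's list, 11 rose and 2, Fut9 and St6galnac6, fell in V+S- against V-S+ cells, beside the 48.1% higher and 11.6% lower among all listed probes given above. The samples whose loss ended the calls of partners without the block also ended those of the risen genes here. Without the block, Fut9 was not called lower when any V-S+ or V+S- sample was dropped. With clone as a block 6 of the 18 rose in the V+S+ fraction over V-S+ cells and none was called lower, where 25.5% of the listed probes and 3.87% of all tested probes were called higher.

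Other surface antigens were counted in the same way. Of 39 such genes 20 were named in the rows used, and 14 of these were called higher and 0 lower in V+S- relative to V-S+ cells, with a median log2 difference of 0.91, where 48.1% of all listed probes were called higher. The blocked fit called 15 higher and 2 lower, beside 54.9% higher and 15.9% lower among all listed probes. The 2 were Kit (-0.93), the stem cell factor receptor, and Tfrc (-0.63), the transferrin receptor. These and Cd6 had lower levels in V+S- cells of both clones. Cd6 is counted here as well as among the partners. Without the block the calls of antigens ended for the same 3 samples left out, as did nearly all of those over the whole array. In V+S+ against V-S+ cells 0 were called without clone, and 8 higher and 1 lower, Kit, with it, beside the blocked shares of 25.5% and 8.76% of listed probes. In V+S- against V+S+ cells 0 were called without clone and 5 higher with it, beside 17.0% of listed probes, a comparison in which Cd44 and Alcam were called and Podxl was not. These blocked counts of higher antigens, and that of glycosyltransferases higher in V+S+ cells, moved as each sample was dropped, as did calls over the whole array.

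The listed probes most like each of the 4 were ranked by Pearson's r of the log2 ratios over the 8 samples, among 1997 candidates that share these arrays and were chosen for varying among the fractions. For Cd44 they were Lsp1, Slc16a4, Aph1b, Grina and Cd248, with r between 0.997 and 0.999 against a median of 0.862 over the candidates. For Alcam they were Adamts4, Col8a1, Cd248, Postn and Dkk3 (r from 0.994 to 0.997, median 0.840). For Podxl they were Adam8, Cdcp1, Olfr1372-ps1, Dlk2 and Anxa4 (0.983 to 0.987, median 0.819), and for Cd47 B2m, Glipr2, Marcks, Actn1 and Ulk2 (0.994 to 0.997, median 0.900). None of the 4 was among the nearest 5 of another. Cd44 and Alcam were closest to each other, with r = 0.989, Cd44 ranking at 15 for Alcam and Alcam at 62 for Cd44. Podxl had r = 0.798 with Cd44, 0.778 with Alcam and 0.920 with Cd47.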

How the data were processed

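RNA of 4 sorted fractions in 2 clones was hybridised to two-colour 60-base oligonucleotide arrays against a universal mouse reference (Cy5). The authors deposited scanner files with the intensity of each spot (Agilent Feature Extraction 9.5.1.1), each array scanned 2 times, plus log10 values of 25164 probes, which after centring followed the processed Cy3 over Cy5 ratios. Mean signals were corrected with normexp (offset 50) and normalized by loess in limma 3.58.1 (R 4.3.3), control spots and outlier flags were left out, and the 2 scans were averaged into 1 replicate. Probes with Cy3 well above background in at least 1 fraction were tested with lmFit and eBayes over all 8 samples. Calls needed a false discovery rate under 0.05 and a change over 1.5-fold, and the overall and interaction tests the first alone. Clone, the same cell line in every fraction, pairs the samples: deviations from the fraction means correlated between 0.59 and 0.81 over the 6 pairs of fractions. The main fit has no clone term. The blocked fit is quoted where a call or a count depends on it, and for some intervals and ranges of differences. The fits were checked on simulated data. The number of arrays limits the precision.

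Genes were named through the study's supplementary list, of which 1998 rows were used and 171 were not, by symbol and probe only. Fractions and clones follow the sample titles, since the design text names V-S+ in 2 places and never V+S-. The 4 genes, the gene lists and the tests were chosen with earlier results of these data known. Values are given for the 4 genes, for listed partners by their roles, for Fut9 and for the 5 listed probes most like each of the 4, and other listed genes are given by counts, with Tcfap2c, Kit, Tfrc and St6galnac6 named after their values were seen. Motifs were searched in RefSeq promoters (GRCm38.p6) on both strands. Alternatives covered the background correction, normalization, Cy3 alone, filters, single scans, the deposited log10 values, the clone block, an ordinary test, the fold threshold, fits of 2 fractions and each sample left out. The blocked fit with each sample left out was added after seeing the data.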

Additional observations from a re-analysis of the deposited data

Results flagged for a closer look

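Podxl was set apart because its small differences pointed opposite ways in the 2 clones, with 1 sample per clone and fraction, so that the difference between clones was not tested. In V+S- against V+S+ cells the log2 difference was 0.23 for clone 5.1 but -0.10 for clone 16.1. Between V-S- and V-S+ cells, it was 0.042 for clone 5.1 but -0.0042 for clone 16.1. Cd44, Alcam and Cd47 had the same sign in both clones in all 5 comparisons of fractions. Groups of 2 samples are too small to test for a sample far from the others.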

How the results depend on the processing

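The members called in V+S- against V-S+ and in V+S- against V-S- cells numbered 4 in each alternative but 2 kinds. The ordinary, unmoderated test called 1 (Podxl) in each. In fits with a sample left out and without clone, the calls depended on the sample dropped, as did calls over the whole array. With clone as a replicate block the members called went from 0 to 2 in V+S+ against V-S+ cells. They went from 0 to 2 in V+S- against V+S+ cells and from 0 to 1 for the interaction. In blocked fits with a sample left out, these calls moved with the sample dropped, as did calls over the whole array. The overall test called 3, but 0 with signals processed by the scanner software and with the ordinary test. It called 2 with the authors' log10 values, in which Alcam was lost. With a sample left out and without clone, its calls moved with those over the whole array. Between clones 1 member, Cd44, passed with the processed signals and with the authors' log10 values, 2, Cd44 and Alcam, without the fold threshold, and 0 in the other alternatives, 0 throughout with a sample left out. In V-S- against V-S+ cells 0 were called in every alternative.

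No called difference changed sign. Among differences near 0, Podxl in V-S- against V-S+ cells turned to -0.16 with median centring, -0.079 with Cy3 alone and -0.017 with the first scan, and its interaction to -0.024 with processed signals and with the authors' values. With a sample left out, without and then with the block, Podxl ranged from -0.0075 to 0.045 and -0.012 to 0.049 in that comparison, from -0.058 to 0.19 and -0.063 to 0.19 in V+S- against V+S+ cells, from -0.077 to 0.17 and -0.082 to 0.17 for the interaction, and from -0.011 to 0.10 between clones, and Cd44 in V-S- against V-S+ cells from -0.26 to 0.024 and -0.28 to 0.043. With the block, such values included 0.015 for Cd44 without the clone 5.1 sample of V-S+ cells and, without that of V+S- cells, -0.033 for Podxl in V+S- against V+S+ cells and -0.051 for its interaction. The cause of these changes was not tested. Where a fraction keeps 1 sample, that sample is assumed to vary like the others. Cd44 came within 2.17 times the background, and each fraction has 2 samples.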
